A study of Mus musculus with 16 samples.

Results

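The Hox genes were the 33 genes of this mouse array whose annotated symbol names a member of the Hoxa, Hoxb, Hoxc or Hoxd cluster and that had at least 1 probe set annotated to that gene alone. They were chosen by symbol and not by any measured value, and make up 33 of the 18193 genes and 48 of the 45037 probe sets tested. Of the 39 mouse Hox genes in the reference table, the array covered 9 of 11 in the Hoxa cluster, 9 of 10 in Hoxb, 7 of 9 in Hoxc and 8 of 9 in Hoxd. The other 6 were not analysed here. In all, 22 of the 33 genes had 1 probe set and 11 had several, up to 4, and each gene is shown by the probe set that varied most over the arrays. Counts of Hox genes, and statements on overlap, are by these shown probe sets, and further probe sets are named as such.

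Ascending aorta and aortic valve were taken from mice 30 days old, and the valve specimens held cusp, annulus and root. The mice were either wild type for elastin (Eln+/+) or carried 1 wild-type and 1 mutant allele (Eln+/-), and all 4 groups of tissue and genotype were untreated and held 4 arrays each, 16 in all. Elastin is the main protein of the elastic fibres of arteries and valves. The labels state that each specimen of each animal was used alone, name no strain, and leave unsaid if specimens that share a number came from 1 mouse. For most probe sets each value is a linear ratio of the signal to its median over the 16 arrays, and for 12 of the 33 shown Hox genes, whose median ratio is below 1, it appears to be a ratio to a floor. On the log2 scale used here 0 marks that median or floor, a difference of 1 marks a doubling, and the level of one gene cannot be set against that of another. Differences were tested with limma over all probe sets, and a gene is called changed where its Benjamini-Hochberg adjusted p was under 0.05. Errors are standard errors of a log2 difference unless marked as SD.

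Hox proteins are homeodomain transcription factors that give cells along the head-to-tail axis their positional identity. Within each cluster the genes lie in the order of their paralogue numbers. Low numbers are switched on earlier and further forward in the embryo, high numbers later and further back. The neural crest that builds the outflow tract and arch arteries, and the second heart field, express genes of low number, and many adult connective tissue and smooth muscle cells keep the Hox pattern of the place where they arose. Hox proteins bind DNA with TALE-class partners, the Pbx and Meis proteins, and retinoic acid is a known inducer of the genes at the low-number end of the clusters.

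The probe set for Eln itself with the largest spread read 0.42, 0.48, 0.045 and 0.27 in the Eln+/+ aorta, 0.0028, -0.64, 0.13 and 0.039 in the Eln+/- aorta, -0.62, -0.0028, 0.043 and -1.19 in the Eln+/+ valve, and -2.03, -1.38, -2.62 and -0.81 in the Eln+/- valve. Its genotype difference was -0.42 ± 0.34 (adjusted p = 0.900) in aorta and -1.27 ± 0.34 (adjusted p = 0.395) in valve, so neither passed the test. The valve interval ran from -1.99 to -0.55. The second Eln probe set gave -0.22 ± 0.22 (adjusted p = 0.920) in aorta and -0.61 ± 0.22 (adjusted p = 0.454) in valve. On it all Eln+/- aorta arrays lay below all Eln+/+ aorta arrays, against 1.41% of all genes. The labelled tissues could be told apart by cell type markers. The mean log2 value of 12 cardiac muscle markers lay between -4.08 and -1.02 on the aorta arrays and between 0.50 and 2.21 on the valve arrays, and that of 10 smooth muscle markers between -0.88 and 0.45 in aorta and between -1.84 and 0.27 in valve. All 8 Eln+/- arrays, and 2 of the 8 Eln+/+ arrays, had high Xist with low Y-linked genes, so genotype and sex cannot be fully told apart. The 2 were aorta replicate 4 and valve replicate 2, with Xist minus the Y-linked mean at 0.66 and 0.84 (log2). Valve replicate 4 and aorta replicate 2 of Eln+/+ stood at -11.0 and -10.7. As labelled, the Eln+/+ aorta and valve that share number 2 or number 4 thus did not come from 1 mouse. Replicates 2 and 4 of the Eln+/- aorta carried thymocyte marker means of 1.70 and 0.88, while the other 14 arrays lay at or below 0.027. In such bulk samples, fewer cells of a type and less RNA per cell cannot be told apart.

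Promoters are printed for 3 of the Hox genes that were lower in valve than in aorta and for 1 further along a cluster, to show the sequence around an annotated start of each. Each window runs from 250 bases before to 50 bases after the start of transcription in the RefSeq annotation of build GRCm38.p6, 5′ to 3′ on the gene's own strand, and capitals mark matches to the motifs described next. Hoxa2 lies on the minus strand at chr6:52164782-52165081, Hoxa3 on the minus strand at chr6:52213018-52213317, Hoxb4 on the plus strand at chr11:96318017-96318316 and Hoxd8 on the plus strand at chr2:74704365-74704664. The Hoxa3 window lies between those of Hoxa6 and Hoxa7, out of paralogue order. Whether these tissues use that start was not tested.
Hoxa2: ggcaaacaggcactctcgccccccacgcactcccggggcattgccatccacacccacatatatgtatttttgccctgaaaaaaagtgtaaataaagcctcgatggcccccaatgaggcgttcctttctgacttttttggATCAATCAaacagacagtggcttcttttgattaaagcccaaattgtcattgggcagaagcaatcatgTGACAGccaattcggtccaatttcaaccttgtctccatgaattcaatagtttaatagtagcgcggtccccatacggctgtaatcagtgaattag
Hoxa3: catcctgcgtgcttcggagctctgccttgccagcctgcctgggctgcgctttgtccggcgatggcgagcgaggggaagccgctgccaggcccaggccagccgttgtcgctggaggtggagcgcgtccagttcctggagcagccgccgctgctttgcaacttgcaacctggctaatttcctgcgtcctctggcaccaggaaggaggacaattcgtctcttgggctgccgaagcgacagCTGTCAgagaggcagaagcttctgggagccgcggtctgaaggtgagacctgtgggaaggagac
Hoxb4: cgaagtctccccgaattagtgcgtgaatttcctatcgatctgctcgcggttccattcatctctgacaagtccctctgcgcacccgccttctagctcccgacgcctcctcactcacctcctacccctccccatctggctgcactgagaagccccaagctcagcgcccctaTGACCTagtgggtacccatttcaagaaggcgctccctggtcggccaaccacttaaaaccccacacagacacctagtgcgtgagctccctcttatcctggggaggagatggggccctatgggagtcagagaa
Hoxd8: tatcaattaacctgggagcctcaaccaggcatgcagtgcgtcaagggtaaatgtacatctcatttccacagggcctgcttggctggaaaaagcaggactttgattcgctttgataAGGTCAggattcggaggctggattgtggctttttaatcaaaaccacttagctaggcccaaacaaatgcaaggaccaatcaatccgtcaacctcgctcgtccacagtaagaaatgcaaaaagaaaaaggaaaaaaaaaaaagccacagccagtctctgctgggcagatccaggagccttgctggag

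Promoter windows were found for 22 Hox genes, 19 of them measured here, including 5 of the 8 that were called lower in valve over both genotypes. Each motif was searched on both strands, and no marked matches overlapped in the printed windows. The composite site of Pbx and Hox proteins, TGATNNAT, stood in 8.85% of all 32851 promoter windows and in 4 of the 24 windows of Hox genes (some genes have more than 1). The Hoxa2 window holds it at -111, on the other strand, and holds the Meis motif TGACAG at -44. The Meis motif was in 19.2% of all windows and in 2 Hox windows, the other being that of Hoxa3 at -13. The nuclear receptor half-site AGGTCA, which retinoic acid receptors bind in pairs, was in 16.3% of all windows and in 7 Hox windows, among them Hoxb4 at -81 and Hoxd8 at -135. The homeodomain core TAATTA was in 5.29% of all windows and in 2 Hox windows. These matches describe the letters only.

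Hoxa2 to Hoxa5, Hoxb2 to Hoxb4 and Hoxc4 were lower in the valve than in the ascending aorta. Over both genotypes, 8 of the 33 Hox genes were called lower in valve and 0 were called higher, where 3.8% of all genes were called lower and 5.83% called higher. With limma, 11 of the 33 had an unadjusted p under 0.05, against 22.8% of all genes. The 8 all carry paralogue numbers from 2 to 5. Within those numbers 8 of 11 measured genes were called and the median difference was -0.82, against -0.03 over all genes. By their shown probe sets none of the 20 genes numbered 6 to 13 was called by limma, 3 of them having an unadjusted p under 0.05, and their median difference was -0.014. A further probe set of Hoxc6 was called higher. Both bounds, at numbers 2 and 5, were drawn after the values were seen and leave out Hoxb1 and Hoxd1, which were not called. The counts and medians by number follow from that choice and carry no test of their own. By cluster, 4 of 9 Hoxa genes, 3 of 9 Hoxb genes, 1 of 7 Hoxc genes and 0 of 8 Hoxd genes were called lower.

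**Figure D1:**
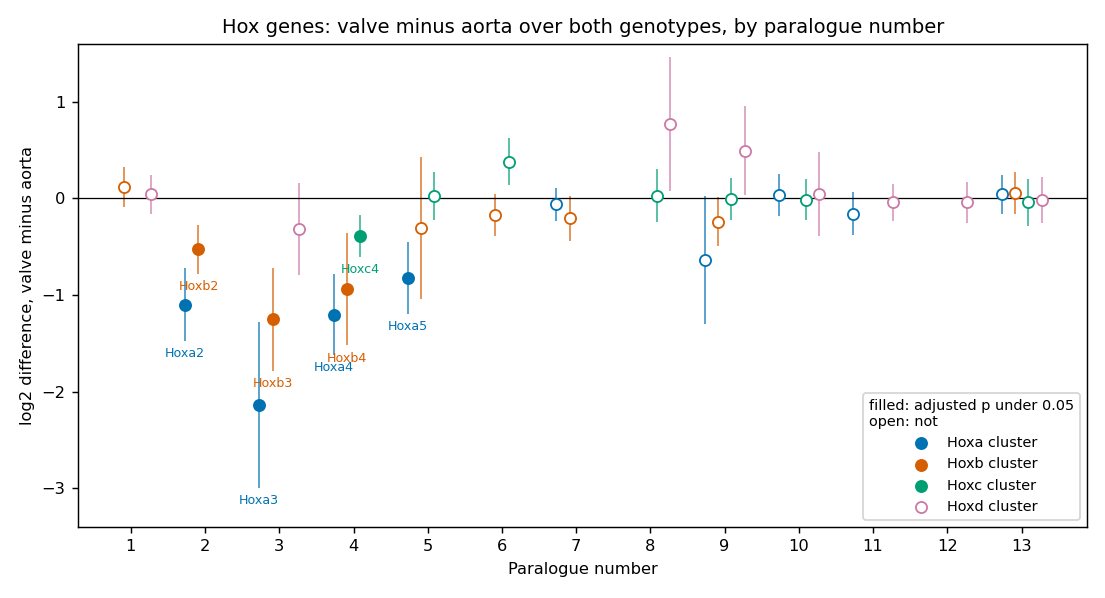
Log2 difference, valve minus aorta over both genotypes (vertical axis), for each of the 33 Hox genes by paralogue number (horizontal axis) and cluster (colour), with 95% confidence intervals and filled points for genes with an adjusted p under 0.05. The 8 filled points lie at numbers 2 to 5 and below 0, from -2.14 for Hoxa3 to -0.39 for Hoxc4, and all points at numbers 6 to 13 are open.

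Hoxa2 and Hoxb2 stand at the low-number end. Hoxa2 patterns the second pharyngeal arch. On the log2 scale Hoxa2 read 0.0040, 0.26, 0.64 and 0.47 in the Eln+/+ aorta and 0.61, 1.58, 0.67 and 1.42 in the Eln+/- aorta. In valve the values were -0.0040, -0.061, -0.20 and -0.21 for Eln+/+ and -0.99, -0.18, -1.16 and -0.35 for Eln+/-. All 8 aorta arrays were above all 8 valve arrays, though 1 Eln+/+ aorta array and 1 Eln+/+ valve array were almost level. By the shown probe sets Hoxa2 was the single Hox gene without overlap between the tissues in the 16 arrays, which held in the lower direction for 0.396% of all genes. It was lower in valve by a log2 difference of -1.10 ± 0.18 (adjusted p = 0.00111), a 2.14-fold difference.

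Hoxb2, which acts in the hindbrain and in arch mesenchyme, read 0.34, -0.043, 0.47 and 0.44 in the Eln+/+ aorta and 0.36, 0.032, 0.65 and 0.20 in the Eln+/- aorta. The valve values were -0.49, -0.39, -0.033 and -0.15 in Eln+/+ and 0.034, -0.063, -0.24 and -0.42 in Eln+/-. Most aorta arrays were above the valve arrays, and the groups overlapped near 0. The difference was -0.53 ± 0.12 (adjusted p = 0.0120).

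Hoxa3 is needed for the thymus, the parathyroid and the third arch artery. Its values in aorta were 0.075, 0.0032, 0.0057 and 1.00 for Eln+/+ and 0.25, 0.0068, -0.0032 and 0.070 for Eln+/-. In valve they were -3.10, -0.74, 0.18 and -2.52 for Eln+/+ and -3.61, -2.11, -2.14 and -1.67 for Eln+/-. The 4 Eln+/- valve arrays and 3 of the 4 Eln+/+ valve arrays lay below every aorta array, and replicate 3 of the Eln+/+ valve lay among them. The difference of -2.14 ± 0.40 (adjusted p = 0.00356), or 4.40-fold, was the largest in size of the 33 genes. The other 3 Hoxa3 probe sets were called too, at -1.63 ± 0.33, -1.48 ± 0.34 and -0.80 ± 0.12, and on the last of these the tissues did not overlap.

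Hoxb3, of the same paralogue group, read 0.30, 0.79, 1.00 and -0.11 in the Eln+/+ aorta and 0.71, 0.16, 0.18 and 1.09 in the Eln+/- aorta. The valve values were -0.80, 0.031, -0.20 and -1.39 in Eln+/+ and -0.94, -0.032, -1.09 and -1.48 in Eln+/-. The tissues overlapped through 1 aorta array at -0.11. The difference was -1.25 ± 0.25 (adjusted p = 0.00548), and its other probe set gave -0.87 ± 0.17. Hoxd3, the third measured member, differed by -0.31 with an interval from -0.79 to 0.16 (adjusted p = 0.490) and was not called.

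**Figure D2:**
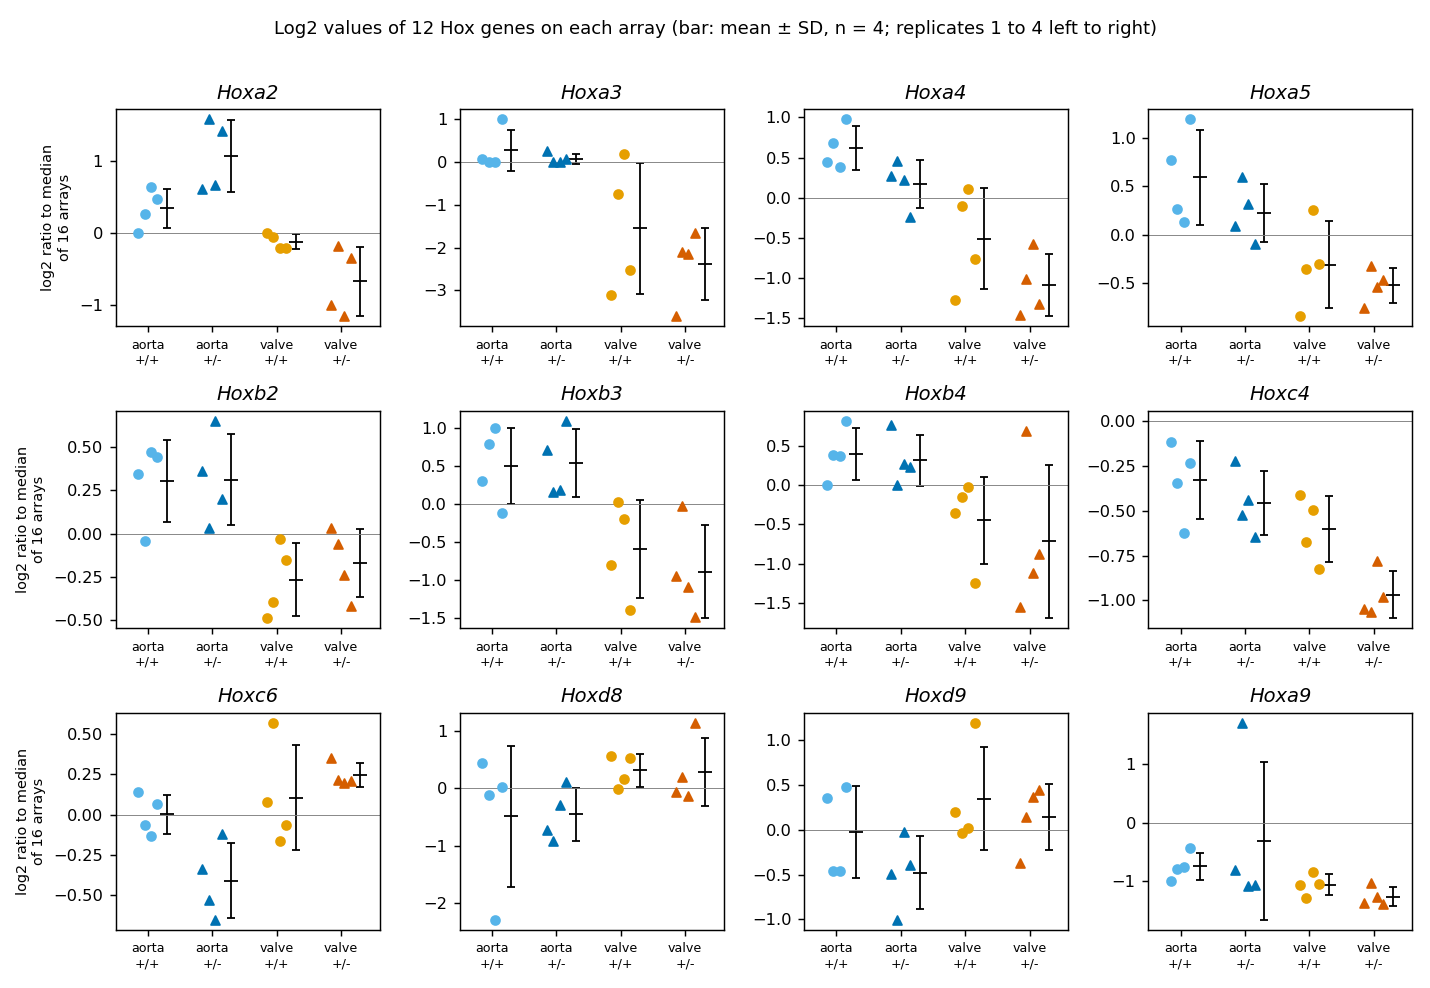
Log2 ratio (vertical axis) for 12 Hox genes on every array, by tissue and genotype (horizontal axis), with a bar for mean ± SD of 4 arrays. The ratio is to the median of 16 arrays, but for Hoxc4 and Hoxa9 it appears to be to a floor. For Hoxa2 to Hoxc4 the means of the valve groups sit below those of the aorta groups, and only for Hoxa2 do the tissues not overlap. Valve values among the aorta values include 0.18 for Hoxa3 and 0.25 for Hoxa5 in Eln+/+, and 0.69 for Hoxb4 in Eln+/-. Hoxc6, Hoxd8 and Hoxd9 lie the other way.

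All 3 measured genes of paralogue group 4 were called lower. Hoxa4 read 0.44, 0.69, 0.38 and 0.98 in the Eln+/+ aorta and 0.27, 0.45, 0.22 and -0.25 in the Eln+/- aorta. In valve it read -1.28, -0.11, 0.10 and -0.77 for Eln+/+ and -1.46, -1.01, -0.58 and -1.32 for Eln+/-. Within each genotype the aorta arrays were above the valve arrays, and across genotypes 1 Eln+/- aorta array lay among the valve values. The difference was -1.20 ± 0.20 (adjusted p = 0.00125), or 2.30-fold. That probe set is of a kind whose probes may match other transcripts too, and the second Hoxa4 probe set differed by -0.54 ± 0.19 (adjusted p = 0.0956), which did not pass.

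Hoxb4, known for its role in blood stem cells, read 0.0018, 0.38, 0.38 and 0.82 in the Eln+/+ aorta and 0.76, -0.0018, 0.27 and 0.23 in the Eln+/- aorta. Its valve values were -0.36, -0.15, -0.027 and -1.25 in Eln+/+ and -1.55, 0.69, -1.12 and -0.88 in Eln+/-. All but 1 valve array were below all aorta arrays, and the exception was replicate 2 of the Eln+/- valve. The difference of -0.94 ± 0.27 (adjusted p = 0.0474) was close to the threshold, and the call was lost when any of 13 of the 16 arrays was left out. The second Hoxb4 probe set differed by -1.01 ± 0.16 (adjusted p = 8.23e-04).

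Hoxc4 had smaller differences. Its values were -0.12, -0.34, -0.62 and -0.23 in the Eln+/+ aorta and -0.23, -0.52, -0.44 and -0.65 in the Eln+/- aorta. In valve they were -0.41, -0.68, -0.50 and -0.82 for Eln+/+ and -1.05, -1.06, -0.78 and -0.98 for Eln+/-. The 4 Eln+/- valve arrays lay below all aorta arrays, while the Eln+/+ valve arrays overlapped with them. The difference was -0.39 ± 0.10 (adjusted p = 0.0265), or 1.31-fold. The median ratio of this probe set was below 1, as for 12 of the 33 shown genes, which occurs where the deposited ratios appear to have been taken against a floor in place of a lower median.

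Hoxa5, which acts in the lung and the cervical skeleton, was the called member of group 5. It read 0.77, 0.26, 0.14 and 1.19 in the Eln+/+ aorta and 0.086, 0.59, 0.32 and -0.091 in the Eln+/- aorta. The valve values were -0.84, -0.35, 0.25 and -0.30 in Eln+/+ and -0.75, -0.32, -0.54 and -0.46 in Eln+/-. The tissues overlapped through 1 Eln+/+ valve array at 0.25. The difference was -0.82 ± 0.18 (adjusted p = 0.00817), and its second probe set gave -0.74 ± 0.13. Hoxb5 differed by -0.30 with an interval from -1.04 to 0.43, and Hoxc5 by 0.027 with an interval from -0.22 to 0.28; neither was called.

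Counted over genes, 5 of the 8 lower genes had further probe sets, 7 in number. All 7 differed in the same direction and 6 of them were called, where 8.04% of all probe sets were called in either direction. They read genes already picked as lower on the same arrays, so their agreement is no independent test. The mean log2 value over the 11 genes numbered 2 to 5 lay between 0.056 and 0.36 on the 8 aorta arrays and between -0.96 and -0.082 on the 8 valve arrays. That range of numbers was drawn after the values were seen.

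Markers of other cell types moved with the same contrast. All 12 cardiac muscle markers were called higher in valve, with a median log2 difference of 4.04. Of 10 smooth muscle markers, 6 were called lower in valve and 1 higher, with a median of -0.96. Replicate 3 of the Eln+/+ valve, which had the highest Hoxa3 value in valve, had a smooth muscle marker mean of 0.081. Replicates 1, 2 and 4 had marker means of -0.42, 0.27 and -0.67 and Hoxa3 values of -3.10, -0.74 and -2.52. How the 2 are related was not tested. All 8 adipocyte markers had lower values in valve and 1 was called, with array means from -0.59 to 2.92 in aorta and from -0.95 to 0.34 in valve. Of 9 fibroblast markers 4 were called higher in valve, and of 10 cartilage-type matrix markers 8. The smooth muscle, fibroblast and cardiac muscle means were tried as covariates after the values were seen. With the smooth muscle mean, 2 of the 8 Hox genes were called, Hoxa2 and Hoxa4. With the adipocyte mean the count was 5, with the fibroblast mean 4, and with the cardiac muscle mean 0, where limma called 0 of all probe sets as well. All 8 differences remained negative under each of these covariates, but several shrank. With the cardiac muscle mean Hoxa2 moved to -0.43, Hoxa3 to -1.09, Hoxb3 to -0.63 and Hoxb4 to -0.31. With the smooth muscle mean Hoxb4 moved to -0.50, and with the adipocyte mean Hoxa5 moved to -0.49. The cardiac muscle mean separated the tissues on all arrays, so the fit with it cannot tell tissue from cardiac muscle content. The part of cell composition in these differences was not tested.

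**Figure D3:**
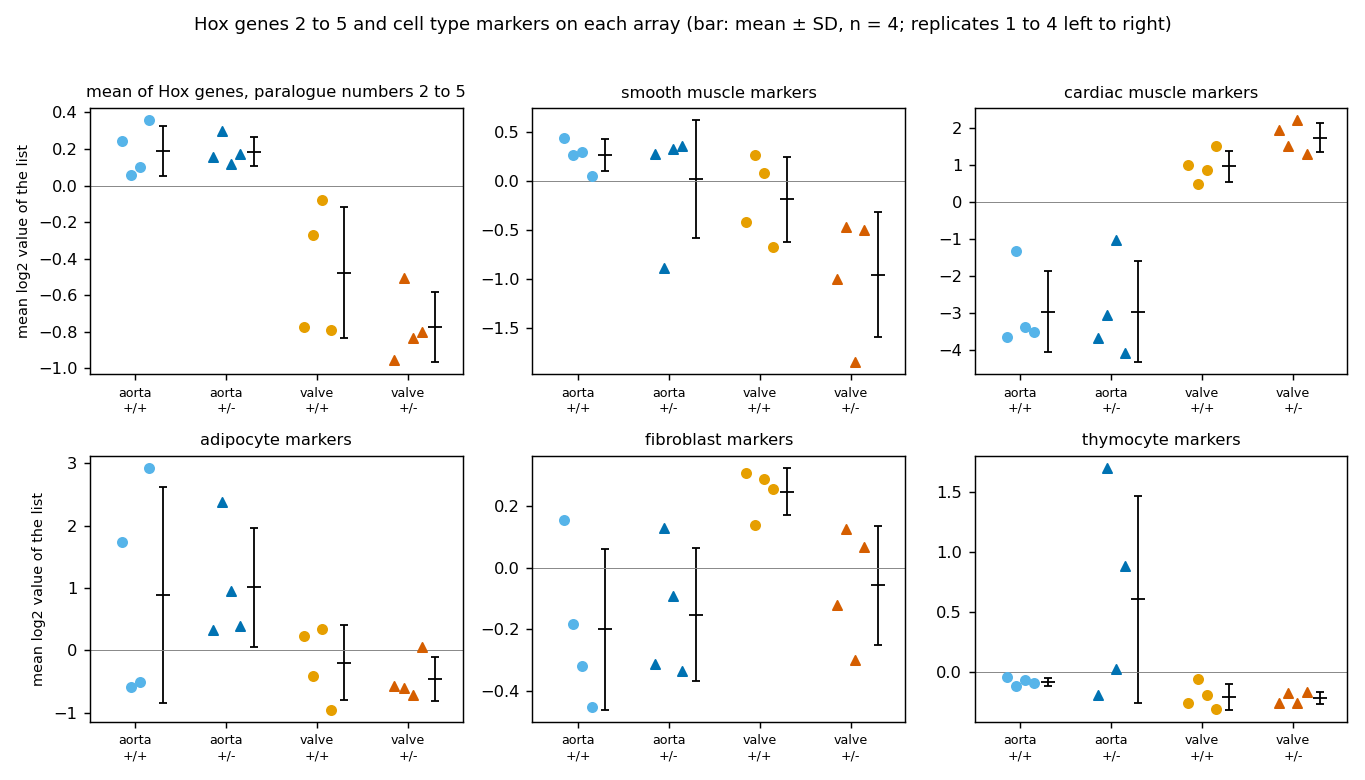
Mean log2 value on every array (vertical axis) of the 11 Hox genes numbered 2 to 5 and of 5 cell type marker lists, by tissue and genotype (horizontal axis), with a bar for mean ± SD of 4 arrays. The Hox mean and the cardiac muscle mean separate aorta from valve on all arrays, in opposite directions, while the other 4 marker lists overlap. The range of Hox numbers in that mean was drawn after the values were seen.

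Genes further along the clusters differed little or with wide error. Of the 20 genes numbered 6 to 13, 8 had a median ratio below 1, against 2 of the 11 numbered 2 to 5. The ratios hold no signal level, so a narrow interval near 0 does not show equal expression. For these 20 genes the 95% interval of the valve minus aorta difference lay within 0.5 of 0 on the log2 scale for 16 and within 1 for 18. The largest of them were Hoxd8 and Hoxd9, which lie next to each other and are known from trunk and limb patterning, and Hoxa9, a gene of haematopoietic progenitors. By their shown probe sets none of these 3 passed the test. Hoxc6 is described after them, and the remaining 16 genes, Hoxa7, Hoxa10, Hoxa11, Hoxa13, Hoxb6, Hoxb7, Hoxb9, Hoxb13, Hoxc8, Hoxc9, Hoxc10, Hoxc13, Hoxd10, Hoxd11, Hoxd12 and Hoxd13, had differences from -0.24 for Hoxb9 to 0.057 for Hoxb13. At the other end of the clusters, Hoxb1 and Hoxd1 differed by 0.12 (interval -0.089 to 0.33) and 0.042 (interval -0.16 to 0.24), and neither was called.

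Hoxd8 lay between -2.30 and 0.45 on the 8 aorta arrays and between -0.14 and 1.15 on the 8 valve arrays. Its difference was 0.77 ± 0.33 (adjusted p = 0.188), and its other probe set gave 0.80 ± 0.28 (adjusted p = 0.0943). The mean of both probe sets differed by 0.79 (adjusted p = 0.0470) and would be called, and without replicate 3 of the Eln+/+ aorta the shown difference was 0.47. Hoxd9 lay between -1.005 and 0.48 in aorta and between -0.37 and 1.20 in valve, a difference of 0.50 ± 0.22 (adjusted p = 0.201). Both overlapped widely between the tissues.

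Hoxa9 lay between -1.39 and -0.84 on the valve arrays and between -1.08 and -0.43 on 7 of the 8 aorta arrays. The remaining array, replicate 2 of the Eln+/- aorta, read 1.71. The median ratio of Hoxa9 was below 1, so its ratios appear to be to a floor. The difference was -0.64 ± 0.31 (adjusted p = 0.268), and without replicate 2 of the Eln+/- aorta it was -0.30. That array also had the highest thymocyte marker mean of the 16, at 1.70, and an erythroid marker mean of 2.60. Their part in the Hoxa9 value was not tested, and the other Hoxa9 probe set differed by -0.0085 between the tissues (adjusted p = 0.978).

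Hoxc6, a gene of thoracic identity, had positive differences. Its values were 0.14, -0.066, -0.13 and 0.063 in the Eln+/+ aorta and -0.34, -0.53, -0.66 and -0.12 in the Eln+/- aorta. The valve values were 0.081, 0.57, -0.17 and -0.067 in Eln+/+ and 0.36, 0.22, 0.19 and 0.21 in Eln+/-. In Eln+/- all valve arrays were above all aorta arrays, and in Eln+/+ they overlapped. Over both genotypes the difference was 0.38 ± 0.11 (adjusted p = 0.0519), just short of the threshold, and it passed when each array was centred on its median (adjusted p = 0.0352). Its further probe sets gave 0.39 ± 0.12 (adjusted p = 0.0477) and -0.078 ± 0.081 (adjusted p = 0.671), so they disagreed.

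Within each genotype the same contrast rests on 4 arrays against 4. In Eln+/+ mice limma called 0 of the 33 Hox genes, where 1.32% of all genes were called. An unadjusted p under 0.05 was found for 9 Hox genes, against 13.6% of all genes. The lowest adjusted p was 0.0719, for Hoxa4 at -1.14 ± 0.28. By the shown probe sets 24 genes had negative and 9 positive differences, and the groups did not overlap for 4, Hoxa2, Hoxa4, Hoxb4 and Hoxd11, all lower in valve, against 4.26% of all genes. Hoxd11 is among the genes with a median ratio below 1. A further probe set of Hoxa3, not the one that varied most, was called at -0.95 ± 0.16 (adjusted p = 0.0108), where 0.946% of all probe sets were called. Without replicate 3 of the Eln+/+ valve, 2 of the shown Hox genes were called, Hoxa3 and Hoxa4.

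In Eln+/- mice 5 Hox genes were called lower in valve and 1 higher by their shown probe sets, where 2.65% of all genes were called lower and 4.41% higher. The lower genes were Hoxa2 at -1.74 ± 0.25 (adjusted p = 8.38e-04), Hoxa3 at -2.46 ± 0.57, Hoxa4 at -1.27 ± 0.28, Hoxb3 at -1.42 ± 0.36 and Hoxc4 at -0.51 ± 0.14 (adjusted p = 0.0494). The higher gene was Hoxc6 at 0.66 ± 0.16 (adjusted p = 0.0250). Further probe sets of Hoxb4, at -1.34 ± 0.22 (adjusted p = 0.00219), and of Hoxa5, at -0.80 ± 0.18 (adjusted p = 0.0154), were called lower too, while the second probe set of Hoxa4 was not. On the shown probe sets the groups did not overlap for 7 genes in the lower direction, Hoxa2, Hoxa3, Hoxa4, Hoxa5, Hoxb3, Hoxb7 and Hoxc4, against 5.12% of all genes, and for Hoxc6 in the higher direction, against 6.97%. The Hoxc4 call was lost when any of 14 of the 16 arrays was left out, the Hoxb3 call with any of 5, the Hoxc6 call with any of 4 and the Hoxa3 call with either of 2. Without aorta replicates 2 and 4, the pair with thymocyte markers, 2 Hox genes were called. The count was also 2 without replicate 1 of the Eln+/- aorta or replicate 1 of the Eln+/- valve, and 3 without replicate 3 of the Eln+/- valve.

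**Figure D4:**
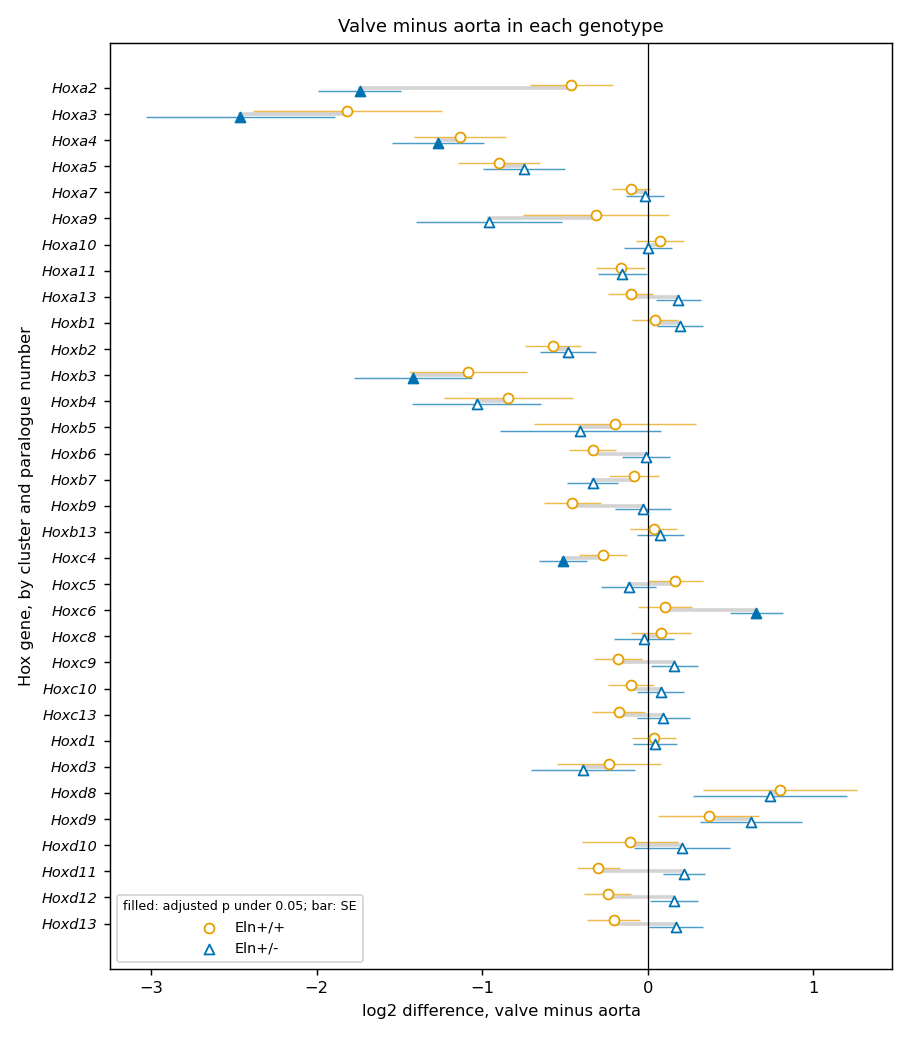
Log2 difference, valve minus aorta (horizontal axis), for each of the 33 Hox genes (vertical axis) in Eln+/+ (circles) and Eln+/- mice (triangles), with bars for the standard error and filled symbols for an adjusted p under 0.05. From Hoxa2 to Hoxa5 and from Hoxb2 to Hoxb4 both symbols lie below 0, the Hoxa2 symbols being the furthest apart, at -0.46 and -1.74.

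The sign of the tissue difference was the same in both genotypes for 23 of the 33 genes, 16 with negative and 7 with positive values, and it was opposite for 10. Among the genes numbered 2 to 5 it was negative in both for 10 of 11, the exception being Hoxc5. Among those numbered 6 to 13 it was negative in both for 6, positive in both for 5 and opposite for 9 of 20. A call in one genotype and none in the other does not show that the genotypes differ. That difference, the interaction, was tested directly, and limma called 0 of the 33 Hox genes and 0 of all genes. Over all genes 8.48% had an unadjusted p under 0.05, and 3 Hox genes did. The 3 were Hoxa2 at -1.28 ± 0.35 (adjusted p = 0.619), Hoxd11 at 0.52 ± 0.18 (adjusted p = 0.624) and Hoxc6 at 0.55 ± 0.23 (adjusted p = 0.631). The median ratio of Hoxd11 was below 1, as for Hoxc4.

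The genotype comparison set Eln+/- against Eln+/+ within each tissue. Every Eln+/- array had high Xist with low Y-linked genes and most Eln+/+ arrays did not. Its values thus cannot be fully told apart from differences of sex, and the same holds for the interaction. In aorta limma called 0 of the 33 Hox genes and 0 of all genes, and the smallest adjusted p of any probe set was 0.751. Over all genes 5.68% had an unadjusted p under 0.05, and 3 Hox genes did. The 3 were Hoxa2 at 0.72 ± 0.25, Hoxc6 at -0.41 ± 0.16 and Hoxd11 at -0.31 ± 0.13, each with an adjusted p of 0.885. In the listing above, the 4 Eln+/- aorta arrays of Hoxa2 reached higher than the Eln+/+ arrays, and 1 pair of values, 0.61 and 0.64, overlapped. Hoxd11, a gene of limb and kidney, read -0.25, -0.37, -0.30 and -0.53 in the Eln+/+ aorta and -0.42, -0.74, -0.95 and -0.60 in the Eln+/- aorta, an overlap of 1 array in each group. Of the 33 genes 22 had negative and 11 positive values, with a median of -0.091 against -0.016 over all genes. On the shown probe sets Hoxb6 was the single Hox gene whose aorta groups did not overlap, with lower values in Eln+/-, as on a further probe set of Hoxd13, against 1.41% of all genes. Hoxb6 and Hoxd11 lay below 0 on every array, where the ratio appears to be to a floor.

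In valve limma again called 0 of the 33 Hox genes and 0 of all genes. Over all genes 9.48% had an unadjusted p under 0.05, and by their shown probe sets 2 Hox genes did. These were Hoxc4 at -0.37 ± 0.14 (adjusted p = 0.492) and Hoxa2 at -0.55 ± 0.25 (adjusted p = 0.564), followed by Hoxa4 at -0.58 ± 0.28 (adjusted p = 0.584). In each of the 3 the Eln+/- values reached lower than the Eln+/+ values and the groups overlapped. By the shown probe sets all 9 Hoxa genes had negative values in valve, from -0.84 for Hoxa3 to -0.0014 for Hoxa13. The further Hoxa9 probe set lay the other way with overlap, at -0.17, 0.0053, -0.079 and -0.26 in Eln+/+ and 0.12, -0.21, 0.16 and 0.098 in Eln+/-. On the shown probe sets Hoxd11 was the single Hox gene whose valve groups did not overlap, with higher values in Eln+/-, against 3.51% of all genes. Its ratios appear to be to a floor, as said above. On a further probe set of Hoxb3 the valve groups did not overlap either, with lower values in Eln+/-, at -0.66 ± 0.23 (adjusted p = 0.448). The interval for Hoxa3 ran from -2.05 to 0.38. Its further probe sets included 2 whose intervals lay below 0, from -2.43 to -0.46 (adjusted p = 0.423) and from -2.36 to -0.32 (adjusted p = 0.453), and a further probe set of Hoxb4 gave -0.69 ± 0.22 (adjusted p = 0.424), so these too failed the adjustment. The remaining Hoxa3 probe set showed no drop, reading -0.63, -0.17, -0.31 and -0.30 in the Eln+/+ valve and -0.14, -0.30, -0.43 and -0.42 in the Eln+/- valve. The smooth muscle marker mean was -0.18 ± 0.43 (SD, n = 4) in the Eln+/+ valve and -0.95 ± 0.64 in the Eln+/- valve, and the cardiac muscle mean was 0.97 ± 0.41 and 1.75 ± 0.40. Their part in the genotype values was not tested.

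**Figure D5:**
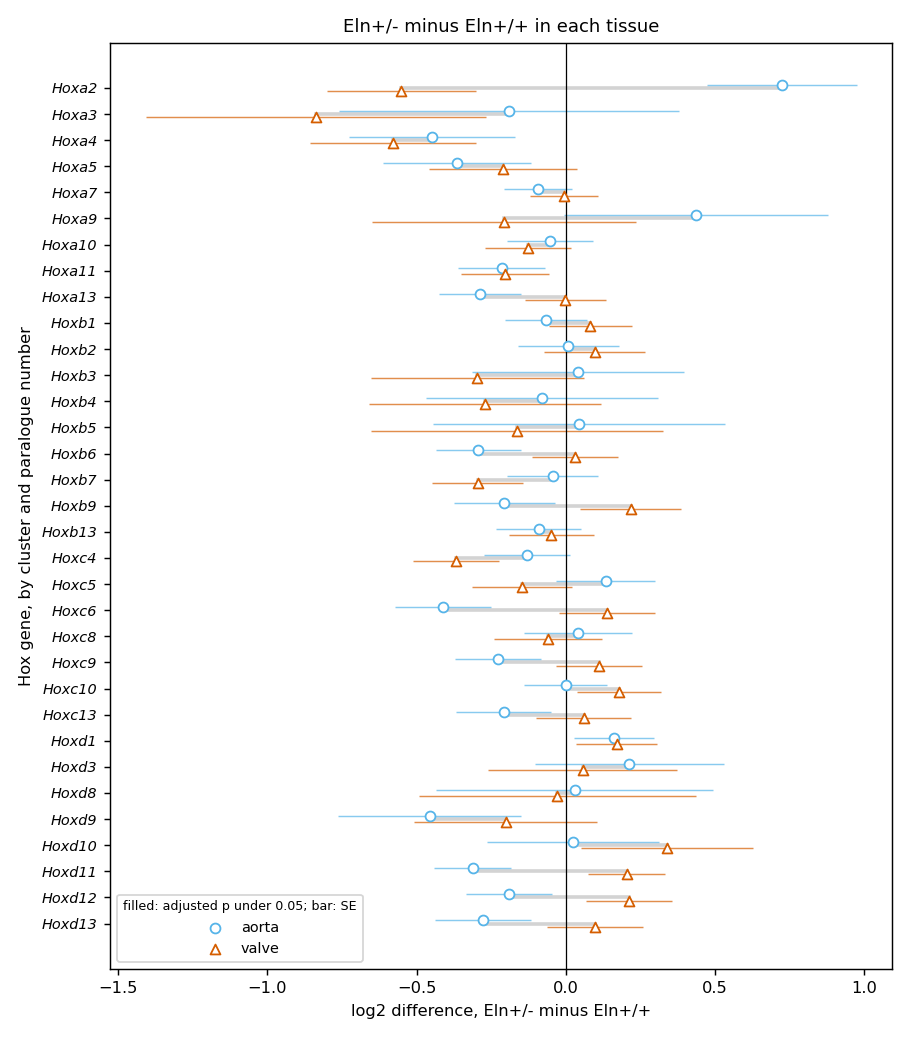
Log2 difference, Eln+/- minus Eln+/+ (horizontal axis), for each of the 33 Hox genes (vertical axis) in aorta (circles) and valve (triangles), with bars for the standard error. No symbol is filled, since no adjusted p was under 0.05; Hoxa2 has the symbols furthest apart, at 0.72 in aorta and -0.55 in valve.

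Genes that work with the Hox genes were described from lists of their own, whose counts stand against 5.83% of all genes called higher and 3.8% called lower in this contrast. Of 8 measured TALE-class cofactors, 0 were called by limma between the tissues, and the lowest adjusted p was that of Meis1 at -0.61 ± 0.22 (adjusted p = 0.102), followed by Pbx3 at 0.61 ± 0.27 (adjusted p = 0.211). Of 16 measured retinoic acid genes 2 were called higher in valve and 0 lower. These were Cyp26a1, which degrades retinoic acid, at 1.71 ± 0.33 (adjusted p = 0.00454), and Aldh1a1, which makes it, at 1.24 ± 0.25 (adjusted p = 0.00575). Aldh1a2, the main enzyme of retinoic acid synthesis in the embryo, differed by -0.17 ± 0.42 and was not called.

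Polycomb proteins keep Hox genes silent and Trithorax proteins keep them active. Of 24 Polycomb genes 0 were called between the tissues by limma, with Pcgf5, a subunit of Polycomb repressive complexes, nearest at -0.54 ± 0.16 (adjusted p = 0.0564). Of 12 measured genes of the Trithorax list 1 was called, Psip1, a chromatin reader that partners the MLL proteins, at -0.49 ± 0.12 (adjusted p = 0.0145).

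The genes beside the clusters were mixed. Of 16 measured flanking genes, 13 had lower and 3 higher values in valve, 1 being called in each direction, a share near that of all genes. Skap2, an adaptor protein whose gene lies next to the low-number end of the Hoxa cluster, was lower by -0.84 ± 0.13 (adjusted p = 0.00102), with all 8 valve arrays below all 8 aorta arrays. Mtx2, a mitochondrial import protein encoded beside the Hoxd cluster, was higher by 0.98 ± 0.23 (adjusted p = 0.0155). Among 15 other homeobox genes of the ParaHox group or linked to the clusters, Meox1, which acts in somites, was the single gene called, higher in valve by 2.93 ± 0.24 (adjusted p = 5.36e-06).

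Transcription factors of other families that mark position in the chest and heart included calls in both directions. Of 46 measured, 9 were called higher in valve and 6 lower, where 5.83% and 3.8% of all genes were, and 31 did not pass. The 4 with the lowest p were all T-box factors. Tbx20 at 3.13 ± 0.27 and Tbx5 at 2.29 ± 0.28, both factors of the heart, and Tbx4 at 0.74 ± 0.14, a factor of lung and hindlimb, were higher, with no overlap between the tissues, against 1.64% of all genes in that direction. Tbx18, a factor of the epicardium and sinus horn, was lower at -1.22 ± 0.19. These lists were not tested as sets.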

How the data were processed

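Ascending aorta and aortic valve RNA of Eln+/+ and Eln+/- mice was hybridised to Affymetrix mouse genome arrays after amplification from small amounts, per the labels' protocols. The authors deposited 1 table of ratios, and RMA is named in the submitters' processing notes. That the ratio is to the probe set's median over the 16 arrays was read from the values, whose median was 1 (to within 1e-06) in 39827 rows; in 5274 it was below 1, as if a floor had replaced a lower median. The smallest deposited ratio was 0.01 and the largest 58.5. Such ratios hold no signal level, so no filter on dim probes could be set. A genome build for the arrays is not given in the sources used here.

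After log2 transformation of the ratios, 64 control probe sets were left out and 45037 were tested. The platform annotation gave 34945 probe sets 1 gene, 932 several and 9160 none; all 33 Hox genes matched the reference table by Entrez identifier. The 16 arrays entered 1 linear model with a mean for each of the 4 groups and moderated variances (limma 3.58.1 in R 4.3.3), leaving 12 residual degrees of freedom. Two-sided p-values were adjusted by Benjamini and Hochberg's method across all 45037 probe sets, called at 0.05, and intervals are at 95%. The fit was tested on simulated data. The number of arrays limits the precision.

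Every Hox gene was counted. Values per array are given for those called in any comparison and then by lowest p until 12, with the 3 of lowest p for each genotype comparison and the interaction. Of other lists, up to 4 called genes, or otherwise up to 2 of lowest p, could be named; Aldh1a2 was added after its values were seen. The members and the 20 lists were chosen with earlier results of these data known. Alternatives were the summary of a gene, the normalization, a floor of 0.25 on the ratios, the variance model, array weights, the replicate number as a block, covariates for sex and cell types, and leaving out arrays. Promoter sequences are from RefSeq (GRCm38.p6).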

Additional observations from a re-analysis of the deposited data

Results flagged for a closer look

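Each of the 33 Hox genes was examined for single arrays far from the other 3 of their group, by the gap to the nearest array over the range of the group. Of 132 groups 8 passed the critical value of 0.829, where chance passes about 1 in 20, so the count is near that share.

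In the Eln+/+ aorta, replicate 4 read 1.00 for Hoxa3, the others lying between 0.0032 and 0.075. The same array read -0.11 for Hoxa11, the others lying between 0.29 and 0.35. Replicate 2 read -1.07 for Hoxa10, against -1.55 to -1.49, and replicate 3 read -0.16 for Hoxd10, against -0.63 to -0.56.

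In the Eln+/- aorta, replicate 2 read 1.71 for Hoxa9, against -1.08 to -0.81, and replicate 4 read 1.64 for Hoxd3, against -0.091 to 0.0095. These are the arrays with thymocyte marker means of 1.70 and 0.88, and any relation was not tested. In the Eln+/- valve, replicate 1 read 0.77 for Hoxb5, against -0.30 to -0.25, and 0.36 for Hoxc6, against 0.19 to 0.22.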

How the results depend on the processing

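The count of Hox genes called between the tissues over both genotypes, 8 in the model as described, was 5 with the adipocyte mean as a covariate. With covariates added after the data were seen it was 2 for smooth muscle, 4 for fibroblasts and 0 for cardiac muscle, where 0 of all probe sets were called. It ranged from 6 to 9 when single arrays were left out, and the 8 genes kept a negative sign in every setting run. In Eln+/- mice the count of 6 became 2 with the adipocyte covariate, 2 without aorta replicates 2 and 4 together, 1 with the smooth muscle covariate and 0 with the cardiac muscle covariate, and ranged from 2 to 6 when single arrays were left out. In Eln+/+ mice the count of 0 became 1 with the mean of all probe sets of a gene, Hoxa5, and ranged from 0 to 2 when single arrays were left out. For the genotype comparisons and the interaction the count stayed at 0 throughout. The difference of Hoxc6 in Eln+/+ mice ranged from -0.051, without replicate 2 of the valve, to 0.19 when single arrays were left out, and that of Hoxa2 in Eln+/+ mice turned to 0.15 with the cardiac muscle covariate. The call of Hoxb4 was lost in 13 of 16 settings that leave out an array and in 8 of 14 others, and that of Hoxc4 in 4 and 5. The causes were not tested. The correlations of same-numbered arrays' deviations ran from -0.15 to 0.071, and 0 of 16 were above 0.1. By these values alone it cannot be told if same-numbered samples came from 1 mouse. With the number as a block, 6 Hox genes were called over both genotypes and 4 in Eln+/-.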

Other observations

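Probe sets of the Hox clusters outside the single-gene rule were 8 in number, 3 annotated to several Hox genes and 5 to antisense transcripts of Hoxd3, Hoxb5 and Hoxa11. By limma 0 of the 8 were called in any tissue comparison, and 0 had an unadjusted p under 0.05 over both genotypes. The probe set shared by Hoxb8 and Hoxb7 differed by -0.20 between valve and aorta, and those shared by Hoxd4 and Hoxd3 by -0.077 and 0.012. A Hoxd3os1 probe set had the largest value, 0.42 ± 0.48. The labels do not show that the kit and probes kept the strands apart here.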
